A study of Mus musculus with 4 samples.

Results

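The Dlx genes of the mouse encode homeodomain transcription factors and are 6 in number: Dlx1, Dlx2, Dlx5, Dlx6, Dlx3 and Dlx4. They were taken by name from the lists of peaks bound in the embryonic basal ganglia by Sp9, a member of the SP family of zinc finger factors. Of the 6 genes, 4 (Dlx1, Dlx2, Dlx5 and Dlx6) had assigned peaks in both lists, and 2 (Dlx3 and Dlx4) had none in either. Together the 4 genes held 13 distinct peaks of the 6022 at embryonic day 16.5 (E16.5) and 16 of the 5847 at embryonic day 13.5 (E13.5). The lists name 5463 genes at E16.5 and 4826 at E13.5.

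The series comprises 4 chromatin immunoprecipitation sequencing (ChIP-seq) samples from wild-type embryos of the outbred CD1 strain, with no transgene or treatment named. At E16.5 and at E13.5 there was 1 library made with a rabbit Sp9 antibody and 1 input library made without antibody. The input libraries entered only through the authors' comparison of ChIP with input. The lists give a peak's signed distance in base pairs from a gene's transcription start site (TSS) on the mm9 build, and no height, width, chromosome position or read total, so the depth behind a peak was unknown. With 1 ChIP library per stage, no difference between the stages has a replicate check, and none was tested. A peak missing from a list had not passed the authors' threshold, which is not a measure of weaker binding there. Whether depth or antibody recovery differed between the libraries was not tested.

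In mammals the Dlx genes lie in pairs whose members face each other and are transcribed towards each other, with shared enhancers in the stretch between them. Dlx1 and Dlx2 act first in progenitors of the ganglionic eminences and Dlx5 and Dlx6 follow in cells that are leaving the cycle; together they drive the differentiation and migration of GABAergic neurons, including striatal projection neurons and cortical interneurons. Dlx3 and Dlx4 are known mainly from skin, placenta, teeth and the facial skeleton. The interval between Dlx1 and Dlx2 holds the known forebrain enhancers I12a and I12b, and that between Dlx5 and Dlx6 holds I56i and I56ii. DLX proteins bind such elements themselves, so the genes are known to act on each other.

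The sequences of the Dlx1 and Dlx2 promoters are shown because Sp9 peaks lay close to the start sites that the lists use. For Dlx1 a peak lay within 235 bp downstream at both stages, and for Dlx2 within 165 bp downstream at E13.5. The sequences are the 250 bases before each start site in the RefSeq table, build GRCm38.p6, read 5′ to 3′ on the gene's strand. If the start sites of the lists and of RefSeq agree, those peaks lie on the other side of the start sites. Capitals mark the GC box GGGCGG, the classical binding sequence of SP factors, and the related CACCC box, both searched on both strands. The Dlx1 stretch is chr2:71529195-71529444 on the plus strand and the Dlx2 stretch is chr2:71546755-71547004 on the minus strand.
Dlx1: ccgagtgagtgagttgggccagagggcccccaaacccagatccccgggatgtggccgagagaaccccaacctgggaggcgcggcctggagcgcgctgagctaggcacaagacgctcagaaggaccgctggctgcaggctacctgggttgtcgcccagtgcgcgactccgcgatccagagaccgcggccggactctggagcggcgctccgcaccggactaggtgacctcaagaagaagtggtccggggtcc
Dlx2: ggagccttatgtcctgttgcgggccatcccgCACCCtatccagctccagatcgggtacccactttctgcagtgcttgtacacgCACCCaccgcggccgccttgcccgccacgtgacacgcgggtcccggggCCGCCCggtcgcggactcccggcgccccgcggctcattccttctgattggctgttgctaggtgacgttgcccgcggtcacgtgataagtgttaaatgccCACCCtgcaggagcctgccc
The Dlx2 stretch held 1 GC box, on the opposite strand and 119 bases before the start site, and 3 CACCC boxes on the gene's strand. The Dlx1 stretch held neither motif. In the first 50 bases after its start site Dlx1 had 1 GC box on its own strand and 1 CACCC box on the opposite strand. None of these matches overlapped another. Of the 32851 RefSeq promoters, 32.7% held a GC box and 52.0% a CACCC box in the 250 bases before the start site. With the first 50 bases after the start site included, 35.7% held a GC box and 57.5% a CACCC box. The homeodomain core TAAT was in neither stretch, and in 54.9% of all promoters of 250 bases. The GC content was 68.0% for Dlx1 and 66.4% for Dlx2, against a median of 52.4% over all promoters. These matches describe letters only, and the lists do not place a peak on them.

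The start site used by the authors for Dlx1 may not be the start site of that promoter table. Every peak assigned to both Dlx1 and Dlx2 had distances that summed to 18641 bp, in both lists, which is therefore the separation of the authors' start sites. In the RefSeq promoter table the start sites lay 17309 bp apart, 1332 bp less. Which of the start sites differs, and how much of the difference comes from the builds, was not tested.

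Dlx1 was the Dlx gene with the most Sp9 peaks at both stages, 8 at E16.5 and 9 at E13.5, none farther than 15518 bp from its TSS. Upstream of Dlx1 the E16.5 list had peaks at 15508 and 10527 bp, and downstream at 235, 2246, 6981, 7966, 10158 and 13132 bp. The E13.5 list had peaks at 15518, 10545 and 8884 bp upstream of Dlx1, and downstream at 228, 1330, 2489, 7780, 10081 and 13127 bp. Peaks of the same gene whose distances differed by at most 200 bp were counted as recurring. By this measure the 2 farther upstream peaks, the peak just downstream of the TSS and the 3 peaks farthest downstream stood in both lists.

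Most Dlx1 peaks were displaced very little between the stages. The peak farthest downstream differed by 5 bp, that just downstream of the TSS by 7 bp, and the upstream pair by 10 and 18 bp. The peak at 10158 bp in the E16.5 list differed by 77 bp from its E13.5 counterpart. The peak at 7966 bp differed by 186 bp, just inside the limit, whereas the E16.5 peak at 2246 bp lay 243 bp from the E13.5 peak at 2489 bp, just outside it. That E16.5 peak was divided by the authors into 2 lettered entries with a single distance, the only divided peak at a Dlx gene.

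The remaining differences at Dlx1 were whole peaks. The E16.5 list had a peak 6981 bp downstream of Dlx1 with no E13.5 peak nearer than 799 bp. The E13.5 list had peaks 8884 bp upstream and 1330 bp downstream of Dlx1, with the nearest E16.5 peaks 1643 and 916 bp away. The E13.5 peak at 1330 bp from Dlx1 lay 17311 bp from the Dlx2 TSS, which is 2 bp more than the separation of the start sites in the RefSeq promoter table.

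Dlx2, the partner of Dlx1, had 5 peaks at E16.5 and 7 at E13.5. All 5 at E16.5 were peaks already given for Dlx1, at 5509, 8483, 10675, 11660 and 16395 bp downstream of the Dlx2 TSS. At E13.5 the 5 shared peaks lay 5514, 8560, 10861, 16152 and 17311 bp downstream of the Dlx2 TSS, and 2 further peaks were assigned to Dlx2 and not to Dlx1. One of these lay 165 bp downstream of the Dlx2 TSS and the other 35690 bp upstream. The E16.5 list had no peak of Dlx2 nearer than 5509 bp to its TSS. Within 1 kb of the TSS there was thus a peak for Dlx1 at both stages and for Dlx2 at E13.5 alone; over all protein-coding genes such a peak was found for 9.42% at E16.5 and 4.93% at E13.5.

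Placed on a common axis, most Dlx1/Dlx2 peaks lay between the start sites, a stretch that includes the genes themselves. The pair held 8 distinct peaks at E16.5, of which 6 lay between the start sites, and 11 at E13.5, of which 7 did. Neighbouring peaks between the start sites were 985 to 4735 bp apart at E16.5 and 1102 to 5349 bp apart at E13.5. More than 5 kb inside both start sites there were 4 peaks at E16.5 and 3 at E13.5. The last 5 kb before the Dlx2 TSS held a peak at E13.5 alone, the promoter peak of Dlx2.

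**Figure D1:**
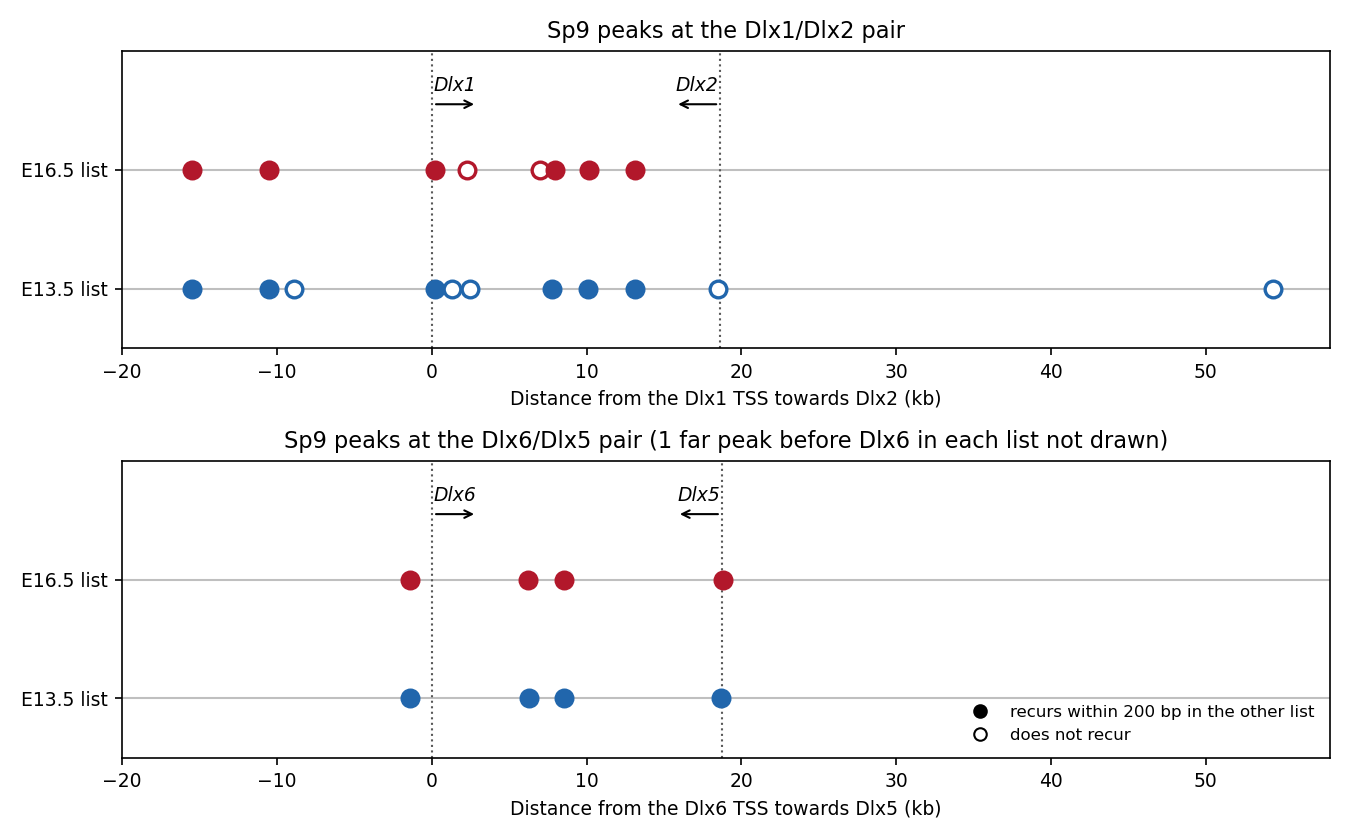
Sp9 peaks at the Dlx1/Dlx2 pair (top) and the Dlx6/Dlx5 pair (bottom), by distance in kb from the first gene's TSS towards its partner; dotted lines mark the start sites, arrows the direction of transcription, and filled points the peaks that recur within 200 bp. At Dlx1/Dlx2, 6 of 8 E16.5 peaks and 6 of 11 E13.5 peaks are filled, and at Dlx6/Dlx5 all 4 drawn peaks of each list are.

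Dlx6 and Dlx5 had fewer peaks, and those near the genes were equal in number and within 151 bp of each other at the 2 stages. At E16.5 Dlx6 had peaks at 81747 and 1390 bp upstream of its TSS and, downstream, at 6208 and 8566 bp. At E13.5 the Dlx6 peaks stood at 272677 and 1381 bp upstream and, downstream, at 6305 and 8542 bp. The 3 near peaks recurred, with differences of 9, 97 and 24 bp, and each list had 1 far upstream peak that did not.

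Dlx5 had 3 peaks in each list. The E16.5 peaks of Dlx5 stood at 84 bp upstream and, downstream, at 10185 and 12543 bp, and the E13.5 peaks at 67, 10209 and 12446 bp, all downstream. The 2 farther peaks of Dlx5 are the 2 downstream peaks of Dlx6, and the promoter peaks of Dlx5 differed by 151 bp. Dlx5 therefore had a peak within 1 kb of its TSS at both stages, while the nearest Dlx6 peak lay 1390 bp upstream at E16.5 and 1381 bp upstream at E13.5.

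The separation of the Dlx6 and Dlx5 start sites was 18751 bp in both lists, close to the 18641 bp of Dlx1 and Dlx2. Between the start sites Dlx6/Dlx5 had 2 peaks at E16.5 and 3 at E13.5. The difference is the Dlx5 promoter peak, which stood 84 bp outside the interval at E16.5 and 67 bp inside it at E13.5. The 2 peaks assigned to both genes were 2358 bp apart at E16.5 and 2237 bp apart at E13.5.

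The far peaks of the pairs were shared with other genes. The E16.5 peak 81747 bp upstream of Dlx6 lay 202935 bp upstream of Shfm1, which encodes a small subunit of the proteasome lid. The E13.5 peak 272677 bp upstream of Dlx6 lay 12005 bp upstream of Shfm1, so it was nearer to Shfm1 than to Dlx6. The upstream peaks of Dlx1, 2 at E16.5 and 3 at E13.5, were also assigned to Metap1d, a mitochondrial aminopeptidase gene, from whose TSS they lay 59329 and 64310 bp downstream at E16.5 and 59319, 64292 and 65953 bp downstream at E13.5. The E13.5 peak 35690 bp upstream of Dlx2 was also assigned to the predicted gene Gm1631, at 136973 bp. The antisense transcripts of the pairs, Dlx1as, Dlx6os1 (Evf2) and Dlx6os2, were named in neither list, so the peaks are not attributed to them here.

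Dlx3 and Dlx4 were named in neither list, so no peak was assigned to them at any distance. The lists name only genes with a peak, and whether Dlx3 and Dlx4 were in the authors' gene set is not known; if they were not, no peak could have been assigned to them. Among the 10 protein-coding genes that flank this pair, 5 on each side, 1 had a peak within 50 kb at E16.5 and 1 at E13.5, where 15.1% and 10.8% of all protein-coding genes had one. These were Slc35b1, a nucleotide sugar transporter gene with a peak 82 bp away from the TSS at E16.5, and Samd14, whose E13.5 peak was 3131 bp away. Among the 10 flanking genes of Dlx1/Dlx2, 7 at E16.5 and 5 at E13.5 had a peak within 50 kb, and among those of Dlx5/Dlx6, 3 at each stage. Flanking genes share peaks with each other and with the Dlx genes, so these counts are not independent. Itga6, an integrin gene and the next protein-coding gene past Dlx2 in the RefSeq table, had no assigned peak in either list. The far E13.5 peak of Dlx2 was assigned to the predicted gene Gm1631 instead, and the E16.5 list had no peak upstream of Dlx2. Whether the absence at Itga6 depends on the authors' gene set was not tested.

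Over the Dlx genes together, 10 of 13 E16.5 peaks (76.9%, exact binomial 95% interval 46.2 to 95) and 10 of 16 E13.5 peaks (62.5%, 35.4 to 84.8) recurred. The background was 56.2% of all E16.5 peaks and 57.9% of all E13.5 peaks, both inside those intervals. Of the peaks within 50 kb of a TSS, 10 of 12 Dlx peaks recurred at E16.5 (83.3%, 51.6 to 97.9), against 44.8% of all 3395 such peaks, which lies below the interval. At E13.5 these were 10 of 15 Dlx peaks (66.7%, 38.4 to 88.2), against 59.9% of all 2541, which lies inside it. The comparison at E16.5 thus depended on which peaks served as background. Intervals cover counting error only, and peaks of 1 locus are not independent. For Dlx1/Dlx2 the share was 6 of 8 at E16.5 (75.0%, 34.9 to 96.8) and 6 of 11 at E13.5 (54.5%, 23.4 to 83.3). For Dlx6/Dlx5 it was 4 of 5 at each stage (80.0%, 28.4 to 99.5). The median displacement of recurring peaks was 21 bp for the 10 Dlx peaks and 38 bp for all peaks. The 200 bp limit bounds both values, and their difference was not tested.

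**Figure D2:**
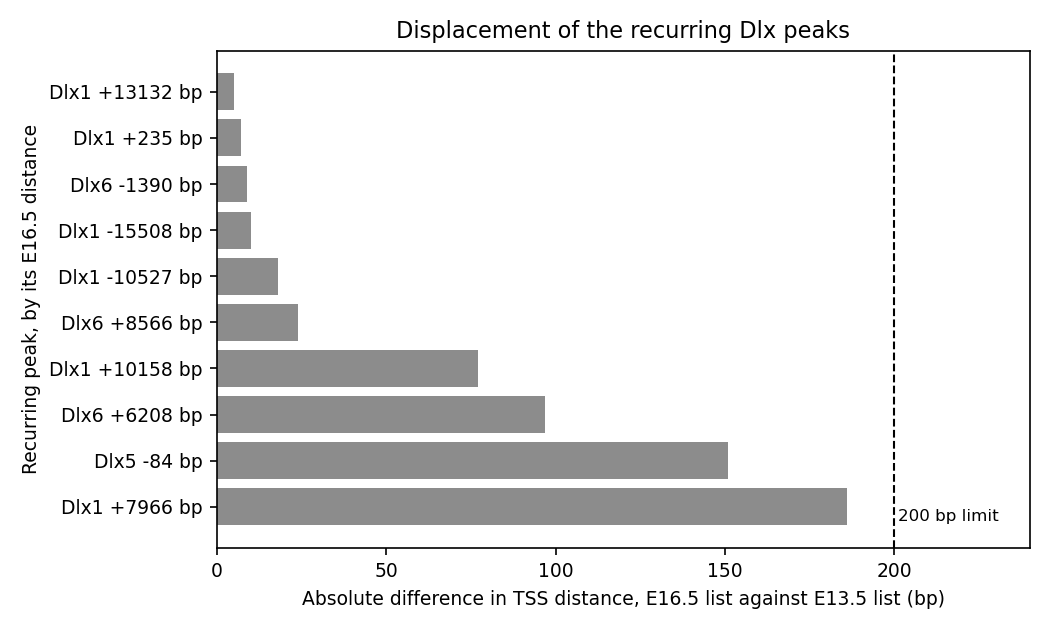
Absolute difference in TSS distance (bp) between the E16.5 and E13.5 lists for each of the 10 recurring Dlx peaks, named by gene and signed E16.5 distance; the dashed line is the 200 bp limit. The differences run from 5 to 186 bp, and 8 of the 10 are under 100 bp. Over all peaks, 3383 recurred within 200 bp and 2921 within 100 bp.

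The number of peaks within 50 kb of the TSS was high among all genes for Dlx1, Dlx2, Dlx5 and Dlx6. Within 50 kb of the TSS, Dlx1 had 8 peaks at E16.5 and 9 at E13.5, Dlx2 had 5 and 7, and Dlx5 and Dlx6 had 3 each at both stages. A peak within 50 kb was present at 4 of 6 Dlx genes at both stages, against 15.1% of 21900 protein-coding genes at E16.5 and 10.8% at E13.5. At least 3 such peaks were present at 0.402% of genes at E16.5 and 0.347% at E13.5, and at least 5 at 0.0822% and 0.0365%. Among the listed genes Dlx1 had rank 9 at E16.5 and rank 3 at E13.5, with 12 genes (0.220% of the list) and 3 genes (0.0622%) having as many peaks or more, Dlx1 included. For Dlx2 these were 23 genes at E16.5 (0.421%) and 7 at E13.5 (0.145%), and for Dlx5 and Dlx6 103 genes (1.89%) and 87 genes (1.80%). Within 1000 kb these shares were larger: 1.68% at E16.5 and 1.78% at E13.5 for Dlx1, and 5.86% and 3.83% for Dlx2. For Dlx5 they were 17.1% and 22.4%, and for Dlx6 9.59% and 13.6%. Since the partners share peaks, their counts are not independent. The Dlx genes were proposed with such counts already known, so their rank is a description.

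**Figure D3:**
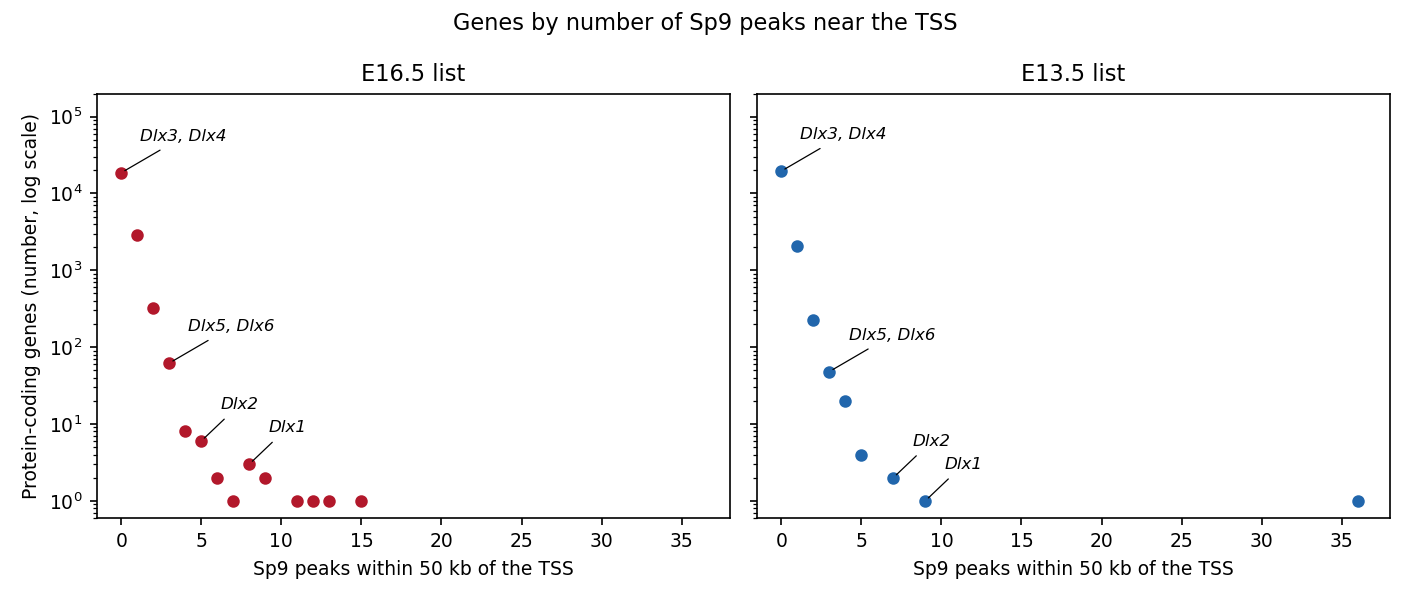
Number of protein-coding genes (log scale) by number of Sp9 peaks within 50 kb of the TSS, in the E16.5 list (left) and the E13.5 list (right), with the Dlx genes marked. Dlx1 had 8 peaks at E16.5 and 9 at E13.5, where a single gene had more (36 peaks), and Dlx3 and Dlx4, which neither list names, are drawn at 0.

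The Dlx pairs were also set beside other gene pairs with shared peaks. A peak assigned to a gene pair and downstream of both start sites marks a convergent pair, and 150 such pairs with start sites at most 100 kb apart were found at E16.5 and 130 at E13.5. In 23 of these at E16.5 and 11 at E13.5 the start sites lay under 1 kb apart, so they overlap at a promoter and leave little room for further peaks. Dlx1/Dlx2 shared 5 peaks at both stages, and Dlx5/Dlx6 shared 2. At E16.5, 4 of the 150 pairs (2.67%) shared 5 or more: 1600014C10Rik/Plekhf1 with 9, Gm9765/Itln1 with 8, Hjurp/Mroh2a with 7, and Dlx1/Dlx2. At E13.5 Dlx1/Dlx2 was the only pair of the 130 (0.769%) with 5, and the next highest had 3. Among the pairs 1 to 100 kb apart the shares with 5 or more were 3.15% at E16.5 and 0.840% at E13.5. At any separation, 24 of 669 pairs at E16.5 and 33 of 722 at E13.5 shared 5 or more peaks, up to 9 at E16.5 and 13 at E13.5. Within 100 kb, at least 2 shared peaks were found at 17 of 150 pairs (11.3%) at E16.5 and 15 of 130 (11.5%) at E13.5, Dlx5/Dlx6 among them.

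**Figure D4:**
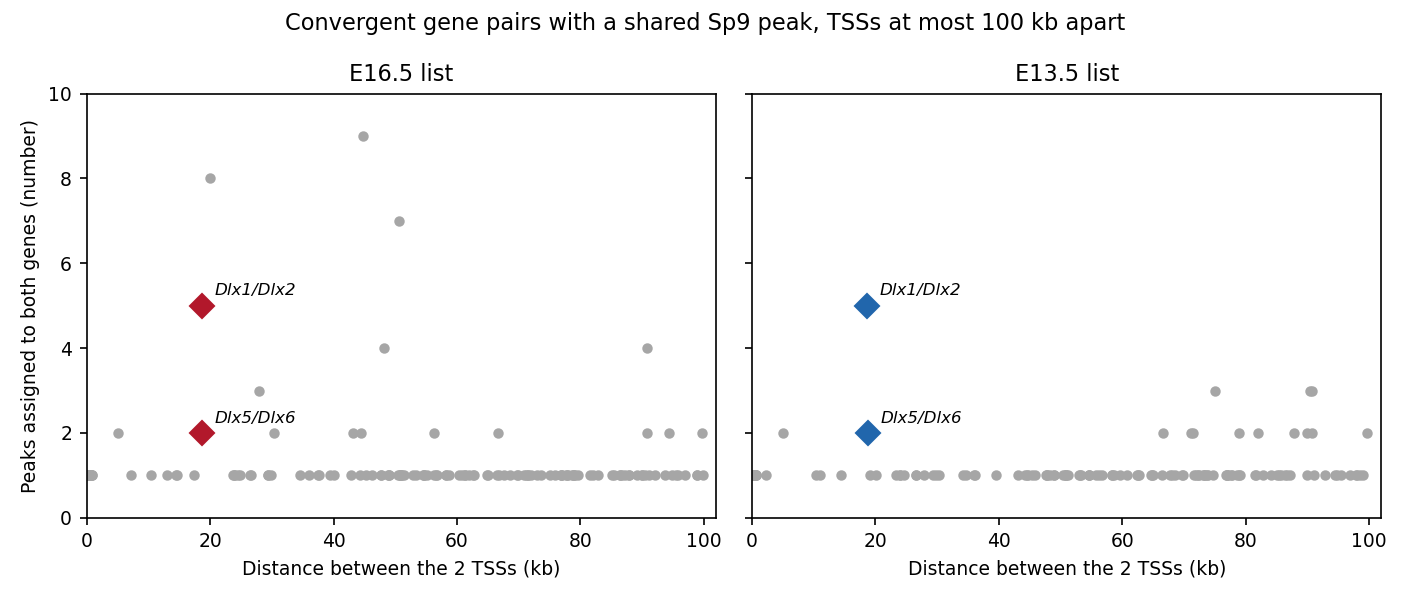
Peaks assigned to both genes of a convergent pair (number) against the distance between their start sites (kb), for start sites at most 100 kb apart, in the E16.5 list (left) and the E13.5 list (right); each point is a gene pair and diamonds are the Dlx pairs. Dlx1/Dlx2 has 5 shared peaks in each list, below 3 of the pairs drawn at E16.5 and above all others drawn at E13.5.

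By the numbers of peaks within 50 kb, compared over the 2 stages, the gene most like Dlx1 was Gse1, which encodes a protein found in corepressor complexes, with 7 peaks at E16.5 and 7 at E13.5, of which 6 recurred. The sum of its differences from Dlx1 was 3 peaks, and Dlx2 followed with 5. Next were Mrgpra3, a receptor gene of itch neurons, with 9 peaks at E16.5 and 4 at E13.5, the immune receptor gene Cd244a with 12 and 5, and the centromere chaperone gene Hjurp with 8 and 1. In these 3 genes 1, 1 and 0 peaks recurred within 50 kb, against 3 at Dlx2 and 6 at Dlx1. A gene's recurring peaks cannot outnumber the smaller of its counts, which for Hjurp was 1, so these numbers are not directly comparable.

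Genes known to act upstream or downstream of Dlx factors had Sp9 peaks of their own. Of a list of 20 such genes, 13 (65.0%) had a peak within 50 kb at E16.5 and 13 at E13.5, where 15.1% and 10.8% of all protein-coding genes had one. The median was 1 peak per gene at both stages, against 0 over all protein-coding genes. Of the 5 regulators upstream of Dlx, 3 had a peak at E16.5 and 2 at E13.5; of the 15 genes downstream, 10 and 11 did. The list overlaps with the genes for which the study is known, Sp8, Sp9 and Six3, so it is not independent of the study.

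Among the genes downstream of Dlx, Zeb2, a zinc finger gene that directs interneurons to the cortex, had peaks 2407 and 32929 bp downstream at E16.5. At E13.5 the Zeb2 peaks stood at 45193 bp upstream and, downstream, at 2731 and 15830 bp, and none recurred within 200 bp. The GABA synthesis genes Gad1 and Gad2 had 3 peaks each within 50 kb at E16.5 and 1 each at E13.5, and the E13.5 peak of each recurred. Lhx6, a LIM homeodomain gene of medial eminence interneurons, had 1 peak at E16.5 and 2 at E13.5, and Sp9 itself had 3 and 4.

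The Dlx genes were also set beside a chosen list of 39 other homeobox genes, most of the NK-like class, to which Dlx genes are related. The list does not hold the whole class, and its Gsx and Gbx genes are usually placed outside it. A peak within 50 kb was present in 12 of 39 cases at E16.5 (30.8%) and 8 of 39 at E13.5 (20.5%). Over all protein-coding genes these shares were 15.1% and 10.8%. The median was 0 peaks at both stages for the list and for all genes. Within the list, the highest number within 50 kb was 2 at E16.5, at Msx2, and 3 at E13.5, at Gbx1. Both peaks of Msx2, a homeobox gene of BMP signalling, recurred. The 6 Dlx genes had a median of 3 peaks within 50 kb at both stages, with Dlx3 and Dlx4, which the lists do not name, counted as 0.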

How the data were processed

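Sp9 ChIP-seq of CD1 basal ganglia was deposited as 1 peak list per stage. Build mm9, MACS2 2.1.0, BWA 0.6.2, bcl2fastq 1.8.4 and CASAVA 1.8.2 are named, with no settings, in the submitters' processing notes; no source used here gives the peak threshold. The authors, per the file headers, assigned peaks to genes by domains of 5000 bp upstream and 1000 bp downstream, extended up to 1000000 bp, with curated domains added. The values as deposited are text without a standard unit: numbered peaks with signed TSS distances. Beyond the core domain a peak goes only to flanking genes, so counts depend on gene spacing.

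Each number was counted as 1 peak. Gene names were matched to a RefSeq table (GRCm38.p6; 5330 of 5463 names at E16.5, 4698 of 4826 at E13.5, synonyms included); 21900 protein-coding genes, absent ones at 0, served as background. Matching between lists was one-to-one, closest first, and tested on simulated data. There peaks were moved by at most 100 bp or very far, so shifts near the 200 bp limit were not tested. Positions on the pair axes follow from peaks assigned to both genes. Genes most like Dlx1 (up to 5) had the smallest summed difference in peak numbers; list genes were named (up to 8) with at least 2 peaks within 50 kb in either list, most first. Values of some list genes are not reported here. Other named genes, among them convergent pairs, flanking genes, Msx2 and Gbx1, were chosen after their values were seen. The members and lists were chosen with earlier results of these data known. Promoter sequences are RefSeq's, matched by symbol for 2 of 6 genes. Python 3.11.15, numpy 2.4.6, scipy 1.17.1 and matplotlib 3.10.9 were used. Alternatives were other tolerances, windows, boundaries, backgrounds and lettered entries.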

Additional observations from a re-analysis of the deposited data

How the results depend on the processing

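Of 106 alternative values, 74 kept the reported count within 1.5 times, or the reported share within its interval, and 32 moved further. The 74 include every value for Dlx3 and Dlx4, which neither list names. No setting could move those values, so the 74 overstate how stable the results were. The number of recurring Dlx peaks ranged from 8 to 11 at both stages over tolerances of 100, 500 and 1000 bp, lettered entries counted separately, and peaks within 50 kb alone. Within 10 kb, Dlx1 had 4 peaks at E16.5 and 5 at E13.5, Dlx2 had 2 and 3, and Dlx5 had 1 and 1. With a boundary 5 kb inside each TSS, 3 E13.5 peaks lay between Dlx1 and Dlx2. Of the 39 other homeobox genes, those with a peak numbered 7 at E16.5 and 4 at E13.5 within 10 kb, and 15 at E13.5 within 100 kb. The convergent pairs sharing at least 5 peaks, under limits chosen after seeing the data, numbered 2 of 38 at E16.5 within 25 kb, and 24 at E16.5 and 33 at E13.5 at any separation.

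The share of genes with at least as many peaks depended on the background and the window. Over all protein-coding genes it was 0.0411% at E16.5 and 0.00913% at E13.5 for Dlx1, 0.0822% and 0.0183% for Dlx2, and 0.402% and 0.347% for Dlx5 and for Dlx6; absent genes counted as 0 lower it by construction. Over listed genes within 10 kb it was 3.06% at E16.5 and 0.456% at E13.5 for Dlx2, 46.7% and 31.5% for Dlx5, and 0.604% and 0.456% for Dlx6. Within 100 kb it was 0.769% at E16.5 for Dlx2, 3.79% at E16.5 and 4.08% at E13.5 for Dlx5, and 1.41% and 4.08% for Dlx6.

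No paired analysis was possible because each stage had 1 ChIP library. A stricter peak threshold could not be tried, since the lists give no scores, and unknown depth limits every statement on a missing peak.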
